A study of Mus musculus with 201 samples.

Results

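Postsynaptic scaffold and adhesion genes build the protein lattice under an excitatory or inhibitory synapse and hold it to the presynaptic side. The set examined here was fixed by name and held 36 genes, and each gene was followed through every probe set whose array annotation gives that 1 symbol. Of the 36 genes, 35 had at least 1 probe set, and together they had 100 of the 45037 probe sets tested. No tested probe set carried the single symbol Shank2. The number of probe sets per gene ran from 1 to 7, and 8 genes had a single one. The whole array covered 18193 different symbols.

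At a glutamatergic synapse the membrane-associated guanylate kinases, such as Dlg4 (PSD-95), bind receptors and adhesion proteins. Dlgap proteins link these kinases to Shank, and Shank binds Homer, which reaches metabotropic glutamate receptors and calcium stores. CaMKII, formed from Camk2a, Camk2b, Camk2d and Camk2g subunits, is among the most abundant proteins of the postsynaptic density and is required for long-term potentiation in the hippocampus. Neuroligins and leucine-rich repeat transmembrane proteins (Lrrtm) sit on the postsynaptic side and bind presynaptic neurexins, while Nlgn2 and gephyrin (Gphn) belong to inhibitory synapses.

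The data were hippocampal RNA of mice on 201 Affymetrix M430 2.0 arrays covering 100 strains, none of which received a treatment named in the labels. BXD strains are recombinant inbred lines from C57BL/6J and DBA/2J (68 strains, 134 arrays), and CXB strains are such lines from BALB/cByJ and C57BL/6ByJ (13 strains, 27 arrays). Each such line fixed a mosaic of parental chromosome segments, so that genes close to each other carry the same parent's allele in most lines. A further 13 classical inbred strains had 27 arrays. They were 129S1/SvImJ, A/J, AKR/J, BALB/cJ, BALB/cByJ, C3H/HeJ, C57BL/6J, C57BL/6ByJ, DBA/2J, KK/HIJ, LG/J, NOD/LtJ and NZO/HlLtJ. Sister substrains among them, BALB/cJ with BALB/cByJ and C57BL/6J with C57BL/6ByJ, were counted as separate strains. The wild-derived strains CAST/EiJ, PWD/PhJ, PWK/PhJ and WSB/EiJ had 7 arrays. B6D2F1 and D2B6F1, the F1 hybrids of the BXD parents in both directions, had 6. Of the 100 strains, 89 had 2 arrays, 6 had 3 and 5 had 1. Pools held 1 to 4 mice, with a mean pool age of 41 to 196 days (median 62 days), and 101 arrays were labelled female, 99 male and 1 mixed. No label states that 2 arrays of 1 strain used different mice, and the tests therefore describe the spread between these pooled samples, which may be technical. In bulk tissue, fewer cells of a type and less RNA per cell cannot be told apart.

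Markers of hippocampal cells, among them Prox1 of granule neurons and Neurod6 of pyramidal neurons, were above the median of all probe sets. No array's X inactivation transcript lay nearer to the opposite labelled sex. In 21 arrays the labels gave an RMA outlier share of 0.1 or more, and 7 arrays carried a file header that disagreed with their labels. The 7, in strain, sex or batch, were BXD13 replicate 2, both BXD14 arrays, BXD9 replicate 2, D2B6F1 replicate 1, KK/HIJ replicate 2 and PWD/PhJ replicate 1. Values are PDNN scores, which behave like logarithms, but no source used here names the base. Differences are therefore given in PDNN units and not as folds, and levels of different probe sets are not compared. Over all probe sets the median residual SD within strains was 0.0782 units, and over the 100 probe sets of the scaffold and adhesion genes it was 0.118 units.

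Across all strains, 25 of the 100 probe sets differed between strains, a share beside which 21.6% of all probe sets did so (limma moderated F-test, adjusted p at or under 0.05). These 25 lay in 19 genes. Of the 72 probe sets of the set that averaged 8 or more, 22 were called, beside 32.5% of all those averaging 8 or more. The intraclass correlation (ICC), the share of the variance that lay between strains, had a median of 0.116 over the 100 probe sets and of 0.0983 over all probe sets. Of the scaffolds, Dlg4, Dlg1, Dlgap1, Dlgap4, Shank3, Homer1, Homer2, Tanc2 and Sipa1l1 were among the 19. Of the kinase, Camk2a and Camk2d were, and of the adhesion and adaptor genes Nlgn2, Nrxn3, Lrrtm1, Lrrtm2, Lrrtm3, Lrrtm4, Cntnap2 and Apba2. The 5 largest ICCs belonged to Dlg4 1460261_at (0.73, adjusted p = 5.62e-16), Tanc2 1436513_at (0.54), Homer2 1424367_a_at (0.52), Homer1 1436387_at (0.49) and Lrrtm1 1437746_at (0.45). Homer2 1424367_a_at ranged from 8.37 in PWD/PhJ to 9.77 in BALB/cByJ. The call of Shank3 1419137_at (ICC 0.22, adjusted p = 0.0481) was lost when any of 12 of 20 randomly drawn single arrays was left out. Of 10 alternative settings, Shank3 1419137_at lost its call under 8, Lrrtm2 1437787_at under 7 and Nrxn3 1456137_at under 5. Among the 25 calls, 8 held under every alternative setting run for them. Over the 9 comparisons made, 22 genes had at least 1 call and 13 had none. The 13 were Dlg2, Dlg3, Dlgap2, Dlgap3, Shank1, Homer3, Camk2g, Nlgn1, Nlgn3, Nrxn2, Tanc1, Gphn and Baiap2.

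Dlg4 and Nlgn2 lie on chromosome 11 in the RefSeq annotation of assembly GRCm38.p6, with 24 annotated genes between them, and they varied together over the BXD strains. Their promoter windows, 250 bases before to 50 bases after a transcript start, are shown because both genes differed between C57BL/6J and DBA/2J and among the lines derived from them. The RefSeq table (GRCm38.p6) holds 1 window for Nlgn2 and 3 for Dlg4. Capitals mark the GC box GGGCGG or its reverse complement, which the Nlgn2 window holds 3 times and the Dlg4 window shown holds 2 times. The sequences are those of the C57BL/6J reference and carry no information on the DBA/2J allele.
Nlgn2, chr11:69837735-69838034, minus strand: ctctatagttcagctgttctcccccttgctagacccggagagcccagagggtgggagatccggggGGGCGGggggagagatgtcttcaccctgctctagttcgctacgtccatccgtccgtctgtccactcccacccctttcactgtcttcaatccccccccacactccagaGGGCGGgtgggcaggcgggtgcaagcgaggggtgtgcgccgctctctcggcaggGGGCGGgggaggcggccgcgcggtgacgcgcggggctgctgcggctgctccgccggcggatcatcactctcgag
Dlg4, chr11:70023732-70024031, plus strand: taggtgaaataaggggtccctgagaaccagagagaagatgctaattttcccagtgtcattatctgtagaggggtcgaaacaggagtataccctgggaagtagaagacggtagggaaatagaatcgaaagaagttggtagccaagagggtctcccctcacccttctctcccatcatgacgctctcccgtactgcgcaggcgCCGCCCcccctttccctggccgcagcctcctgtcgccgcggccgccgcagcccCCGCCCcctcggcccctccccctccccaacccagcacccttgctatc
The other 2 Dlg4 windows hold no GC box, and on either strand 35.7% of all 32851 windows of the same length hold at least 1. None of the 4 windows held the CCAAT box CCAAT (37.4% of all windows), the E-box CACGTG (7.15%), the cyclic AMP element TGACGTCA (1.79%) or TATAAA (13.6%), each searched on both strands and none overlapping the GC box. A match describes these letters and is no evidence of binding. Of the 36 genes, 28 have windows in the table, and 22 of their 48 windows in 21 genes hold a GC box.

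In the BXD panel 7 of the 100 probe sets, in 7 genes, differed between strains, beside 8.38% of all probe sets. Of the 72 that averaged 8 or more, 6 were called, beside 12% of all those averaging 8 or more. The median ICC of the 100 was 0.0378, beside 0.0601 over all probe sets. The scaffold gene Dlg4, whose product anchors AMPA and NMDA receptor complexes, had the largest ICC of the 100 through 1460261_at (ICC 0.78, adjusted p = 2.90e-12, limma). Its strain values ran from 7.50 in BXD2 and 7.51 in BXD69 to 7.84 in BXD45 and 7.88 in BXD39, with a median of 7.60. They thinned out between 7.64 and 7.68, the widest gap in the middle of the range, with 38 strains below and 30 above. The next widest gap there was 0.0279 units, against 0.0367 units for this one. C57BL/6J lay on the higher side, with arrays at 7.65, 7.79 and 7.94, and DBA/2J on the lower side, with arrays at 7.53 and 7.51. The parents' arrays did not overlap. DBA/2J was lower by a fitted difference of -0.26 ± 0.059 units (SE, adjusted p = 0.00103). In the 1 batch that held both parents, the difference was -0.43 units between 1 array of each.

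Nlgn2, the neuroligin of inhibitory synapses, differed between BXD strains through 1455143_at (ICC 0.46, adjusted p = 0.000815), a call that was lost with MAS5 values (adjusted p = 0.319) and with RMA values (adjusted p = 0.335). Its strain values ran from 9.29 in BXD64 to 9.82 in BXD45, with a median of 9.54. C57BL/6J arrays were at 9.65, 9.77 and 9.72 and DBA/2J arrays at 9.36 and 9.30, without overlap, a difference of -0.40 ± 0.091 units (adjusted p = 0.00148). The F1 arrays lay between the parents for Nlgn2, at 9.60 and 9.49 in B6D2F1 and at 9.53, 9.52 and 9.48 in D2B6F1. For Dlg4 1460261_at they were at 7.59 and 7.72 in B6D2F1 and at 7.50, 7.72 and 7.69 in D2B6F1. The D2B6F1 array at 7.50, below both DBA/2J arrays, was the one whose file header named DBA/2J.

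**Figure D1:**
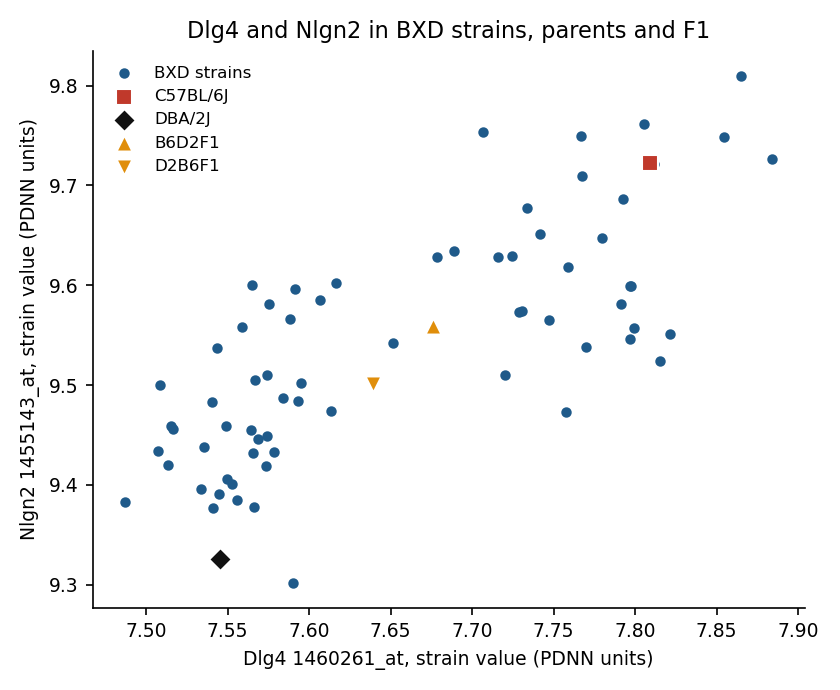
Strain values of Nlgn2 1455143_at (vertical axis, PDNN units) against those of Dlg4 1460261_at (horizontal axis, PDNN units) from the fit over all arrays; circles are the 68 BXD strains, the square is C57BL/6J, the diamond DBA/2J and the triangles the F1 hybrids. Strains high for Dlg4 tend to be high for Nlgn2, C57BL/6J lies at 7.81 and 9.72, DBA/2J at 7.55 and 9.33, and both hybrids lie between them.

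Over the 68 BXD strain values, Dlg4 1460261_at and Nlgn2 1455143_at had a Pearson r of 0.74 and a Spearman rho of 0.74. The permutation p was 1e-05 for each, the smallest that 100000 permutations can give, and adjusted over 48 relations it was 4.36e-05 for r and 6.86e-05 for rho. Without the 2 strains farthest from the Dlg4 median, r was 0.71. Since the Dlg4 values thin out in the middle, the relation was also computed on each side. The cut was made on Dlg4 itself and narrows its range, so r on a side is not comparable with r over the panel. In the 38 strains with lower Dlg4 values r was 0.45 and rho 0.49 (permutation p = 0.00534 and 0.00228, adjusted p = 0.0117 and 0.00547). In the 30 strains with higher values r was 0.23 and rho 0.13 (permutation p = 0.213 and 0.49, adjusted p = 0.275 and 0.573). Without the 2 farthest strains r was 0.40 on the lower side and 0.18 on the higher. The pair was chosen after its values were seen. From MAS5 values r over the panel was 0.56, and from RMA values, over 67 strains, it was 0.34. These points share arrays and batches, and without the batch term r was 0.72.

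Over the 17 classical and wild-derived strains, which include both BXD parents, the r of this pair was 0.75 and rho 0.63 (permutation p = 0.00068 and 0.00794, adjusted p = 0.00181 and 0.0173), and r without the 2 strains farthest in Dlg4 was 0.50. Over the 13 CXB strains r was -0.30 and rho -0.23 (permutation p = 0.31 and 0.457, adjusted p = 0.37 and 0.548), and r was 0.016 without the 2 farthest. Of the 24 genes between Nlgn2 and Dlg4, 17 were measured by 28 probe sets, and 3 of these probe sets differed between BXD strains. They were Gps2 1417796_at (ICC 0.49, adjusted p = 0.00113), Acadvl 1424184_at (ICC 0.38, adjusted p = 0.0217) and Neurl4 1430417_s_at (ICC 0.36, adjusted p = 0.0237). As a description with no test, their strain values had an r with Dlg4 1460261_at of 0.77, -0.60 and 0.52. Among the 10 annotated genes beyond each end, 1 measured probe set was called on the Nlgn2 side (Zbtb4, r with Dlg4 0.51) and 1 on the Dlg4 side (Slc16a11, r with Dlg4 -0.29).

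The other 2 Dlg4 probe sets did not follow 1460261_at. In the BXD panel 1419580_at and 1419581_at had ICCs of 0.0082 and -0.12, and neither passed the test. They had an r of 0.87 with each other over BXD strains, but 0.034 and 0.16 with 1460261_at, and neither of these 2 relations passed the permutation test (adjusted p = 0.818 and 0.263). In the parents they went the other way from 1460261_at, as described with the parental comparison. The second Nlgn2 probe set, 1460013_at, had an ICC of -0.0098 and an r of 0.15 with 1455143_at.

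The remaining 5 BXD calls had ICCs of 0.32 to 0.46. Apba2 1427288_at, an adaptor of the X11 family that binds amyloid precursor protein, ran from 8.76 in BXD94 and 8.89 in BXD85 to 9.26 in BXD45 (median 9.08, ICC 0.46, adjusted p = 0.000883). Camk2b 1448676_at, the CaMKII subunit that binds actin, ran from 9.98 in BXD55 to 10.45 in BXD48a (median 10.21, ICC 0.33, adjusted p = 0.0282). The Camk2b call was lost under 5 of 11 alternative settings, with adjusted p = 0.197 from MAS5 values, 0.0657 from RMA values, 0.725 without the batch term, 0.936 with a spread shared over all strains and 0.0677 with arrays rescaled to an SD of 2. Apba2, Tanc2, Dlgap1 and Camk2d were lost under 2 or 3 of 11. Tanc2 1436513_at, a scaffold with ankyrin and tetratricopeptide repeats, ran from 8.61 in BXD5 to 9.16 in BXD45 (median 8.93, ICC 0.33, adjusted p = 0.0317). The lowest strain was followed by BXD1 at 8.71. Tanc2 and Apba2 thus each had 1 strain set off at the low end, whereas the lowest Camk2b strain was followed by BXD2 at 9.99. BXD94 and BXD55, the lowest strains of Apba2 and Camk2b, had 1 array each, so these ends rest on 1 pool. Dlgap1 1438098_at, which links Dlg4 to Shank, ran from 7.92 in BXD31 to 8.29 in BXD21 (median 8.12, ICC 0.33, adjusted p = 0.0362). Camk2d 1422659_at, a CaMKII subunit also found outside the brain, ran from 7.90 in BXD48a to 8.69 in BXD55 and 8.80 in BXD45 (median 8.17, ICC 0.32, adjusted p = 0.0328). It had the widest range of the 7, 0.893 units, drawn out toward high values. The next 3 genes by ICC did not pass the test. They were Homer1 1425671_at (ICC 0.31, 7.28 in BXD87 to 7.66 in BXD64, adjusted p = 0.0666), Lrrtm3 1434760_at (ICC 0.31, 7.69 in BXD27 to 8.10 in BXD55, adjusted p = 0.0638) and Tanc1 1446029_at (ICC 0.28, 7.63 in BXD55 to 7.93 in BXD23, adjusted p = 0.113).

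**Figure D2:**
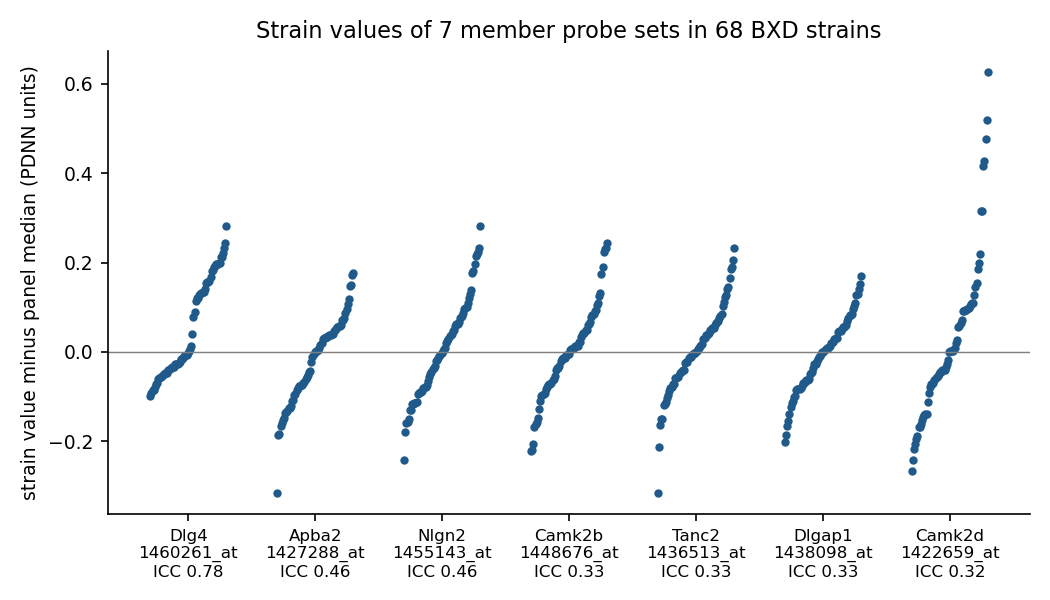
Strain values of the 7 called probe sets in 68 BXD strains, each drawn as its difference from the panel median (vertical axis, PDNN units) and sorted within the probe set; each point is 1 strain. Dlg4 shows a step above its median, whereas Camk2d is drawn out at the high end, where BXD45 is its highest strain.

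BXD45 was the highest strain in 11 of the 100 probe sets, as was BXD14. Over all probe sets BXD45 was highest in 2.28% and BXD14 in 8.77%. BXD55, with 1 array, was highest in 6 of the 100 and lowest in 15, beside 4.43% and 5.85% of all. All arrays of BXD45, BXD14 and BXD55 were labelled with the same batch, so their strain values rest on its fitted batch term. The spread within BXD45 and BXD14 holds no difference between batches, and both BXD14 arrays had disagreeing file headers. Without both BXD45 arrays, an alternative chosen after seeing the data, 6 probe sets were called, and 8.19% of all were. Tanc2 1436513_at (adjusted p = 0.0759) and Camk2d 1422659_at (adjusted p = 0.128) were then no longer called, while the SD of their strain values went from 0.101 to 0.0972 and from 0.183 to 0.169 units. Dlg4 1460261_at kept an ICC of 0.77. Of 72 relations between the called probe sets and the mean of 9 marker lists over strains, 10 passed an adjusted p of 0.05. Camk2d went with the interneuron list (r 0.45, rho 0.36, adjusted p = 0.00456) and the thalamus list (r 0.43, rho 0.45, adjusted p = 0.00522) and against the microglia list (r -0.35, rho -0.38, adjusted p = 0.0301). Apba2 went against the choroid plexus list (r -0.52, rho -0.51, adjusted p = 0.00144) and the thalamus list (r -0.40, rho -0.39, adjusted p = 0.0132) and with microglia (r 0.34, rho 0.40, adjusted p = 0.0421). Camk2b went with the dentate granule (r 0.44, rho 0.44, adjusted p = 0.00432) and pyramidal lists (r 0.39, rho 0.32, adjusted p = 0.0162) and against endothelium (r -0.35, rho -0.35, adjusted p = 0.0301). Dlgap1 went with interneurons (r 0.33, rho 0.26, adjusted p = 0.0497). These are permutation tests with Benjamini-Hochberg adjustment, r kept its sign in all 10 without the 2 strains farthest in the list mean, and the part of these lists in the strain differences was not tested. No list passed for Dlg4, Nlgn2 or Tanc2.

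Probe sets of 1 gene often did not vary together. Within the genes with a BXD call and more than 1 probe set, 43 pairs were compared over BXD strain values, with a median r of 0.22, and 20 pairs passed the permutation test after adjustment, 19 of them with a positive r. Of these, 15 of 21 were pairs of Camk2d probe sets, whose r ran from -0.15 to 0.72. For Dlgap1 3 of 15 pairs passed, with r from -0.32 to 0.62, and for Tanc2 1 of 3.

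In the CXB panel 1 of the 100 probe sets differed between strains, beside 1.09% of all. It was Homer1 1436387_at (ICC 0.78, SD of strain values 0.44, adjusted p = 0.00609). Homer1 encodes scaffolds that tie metabotropic glutamate receptors to Shank, and a short activity-induced form that lacks the coiled coil. The array annotation used here does not say which form this probe set reads. The arrays were at 9.35 and 9.47 in CXB1, at 9.19 and 9.72 in CXB2, at 9.65 and 9.41 in CXB3 and at 9.00 and 9.55 in CXB7. In the other 9 strains the arrays ran from 8.22 in CXB9 to 9.07 in CXB4. The strain values fell on both sides of a gap of 0.374 units, with 9 strains from 8.34 to 8.94 and 4 strains from 9.31 to 9.57. Only the female array of CXB7, at 9.00, lay within the range of the lower 9 strains. Of the substrains that gave rise to the panel, C57BL/6ByJ had arrays at 9.04 and 9.31 and BALB/cByJ had its single array at 8.73. The sister substrains did not repeat this order. C57BL/6J arrays lay from 8.45 to 8.96, while the 4 BALB/c arrays, BALB/cByJ included, had a mean of 9.31 and reached 9.86.

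**Figure D3:**
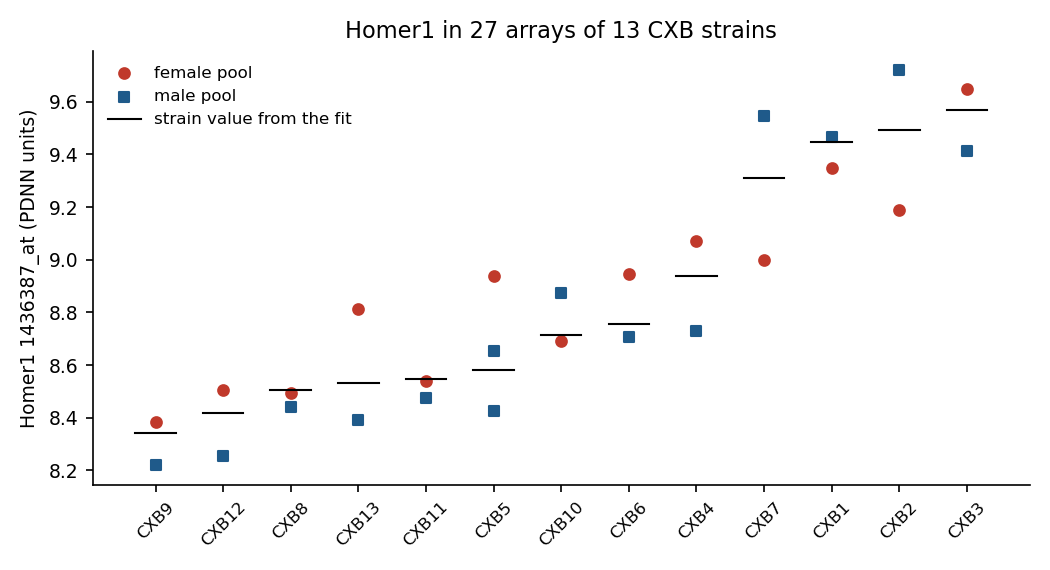
Homer1 1436387_at in the 27 arrays of 13 CXB strains (vertical axis, PDNN units), with strains ordered by their value; circles are female pools, squares male pools and bars the strain values from the fit. CXB7, CXB1, CXB2 and CXB3 stand above the other strains, with strain values of 9.31 to 9.57 against 8.34 to 8.94.

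The mean of the interneuron list was 9.30 to 9.36 in the 4 CXB strains with higher Homer1 values and 9.16 to 9.32 in the other 9. Since the Homer1 values fall on both sides of a gap, no relation over all 13 strains is given. Within the 9 lower strains the r between Homer1 and the interneuron mean was 0.76 and rho was 0.68 (exact permutation test, two-sided p = 0.016 and 0.0503, adjusted p = 0.104 and 0.201 over the 72 relations). It was 0.35 without the 2 strains farthest in the list mean. Its part in the Homer1 difference was not tested. The other Homer1 probe set with a call over all strains, 1425671_at, ran from 7.41 in CXB12 to 7.68 in CXB3 and did not pass in this panel (ICC 0.57, adjusted p = 0.518). Over all 100 strains, Homer1 1436387_at was lowest in CXB9 at 8.37 and highest in CAST/EiJ at 10.34, which had 1 array, and next in LG/J at 9.77, whose arrays were at 9.53 and 10.16. In BXD strains it ran from 8.51 in BXD73 to 9.32 in BXD33 and did not pass the test (adjusted p = 0.228). The genes next to Homer1 by ICC in the CXB panel did not pass either. They were Dlg4 1460261_at (ICC 0.71, 7.68 in CXB7 to 7.89 in CXB12, adjusted p = 0.543), Camk2a 1443876_at (ICC 0.64, adjusted p = 0.0788), Lrrtm4 1455937_at (ICC 0.63, adjusted p = 0.204) and Sipa1l1 1440119_at (ICC 0.62, adjusted p = 0.771).

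Between the BXD parents, 13 of the 100 probe sets in 9 genes differed, beside 7.24% of all probe sets. In DBA/2J 10 were higher, beside 4.61% of all, and 3 were lower, beside 2.63%. The median absolute difference was 0.116 units over the 100 and 0.0635 over all. The 100 also had the larger median residual SD, 0.118 units beside 0.0782, so these medians cannot separate strain differences from noise. When probe sets averaging under 8 were dropped, 8 of the 72 left of the set were called, beside 11.3% of all those left. The share of the set was then no higher than that of all. The 10 higher ones lay in Lrrtm2, Dlg4, Nrxn3, Homer2, Lrrtm3, Tanc2 and Dlg1, and the 3 lower ones in Nlgn2, Dlg4 and Iqsec2. The parents had 2 arrays, both female, for DBA/2J and 3, 1 female and 2 male, for C57BL/6J. The arrays did not overlap between the parents for any of the 13. Over the 100 they did not overlap for 30, beside 24.3% of all probe sets.

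Lrrtm2 encodes a postsynaptic adhesion protein that binds neurexins, and all 3 of its probe sets were higher in DBA/2J. For 1437787_at the DBA/2J arrays were at 9.68 and 9.82 and the C57BL/6J arrays at 9.10, 9.07 and 9.08. The fitted difference was 0.79 ± 0.16 units (adjusted p = 0.000215). For 1456637_at the difference was 0.66 ± 0.19 units, with DBA/2J arrays at 8.99 and 9.27 and C57BL/6J arrays from 8.50 to 8.60. For 1455489_at it was 0.48 ± 0.15 units, with DBA/2J arrays at 8.83 and 9.47 and C57BL/6J arrays from 8.66 to 8.76. The first of these separated the parents by far more than the spread of either, and in the third 1 DBA/2J array lay close to C57BL/6J. The difference of 1455489_at was 0.19 without DBA/2J replicate 2 and 0.75 without replicate 1, and its call was lost without any of 4 of the 5 arrays. Its paralog Lrrtm3 1440112_at was higher by 0.40 ± 0.12 units (DBA/2J 8.12 and 8.21, C57BL/6J 7.65 to 7.93). Nrxn3 1456137_at, a neurexin and so a ligand of these proteins, was higher by 0.59 ± 0.14 units (DBA/2J 9.69 and 10.01, C57BL/6J 9.44 to 9.61). These 2 were the only calls among 4 Lrrtm3 and 5 Nrxn3 probe sets. The other Lrrtm3 differences ran from 0.035 to 0.10 units and the other Nrxn3 differences from -0.095 to 0.24 units.

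Among the scaffolds, Homer2 1424367_a_at was higher in DBA/2J by 0.58 ± 0.13 units, with arrays at 9.71 and 9.37 against 8.99 to 9.19 in C57BL/6J. Without DBA/2J replicate 1 the difference was 0.27 units and no longer called, and without DBA/2J replicate 2 it was 0.93 units. Tanc2 1443123_at was higher by 0.38 ± 0.097 units and Dlg1 1445798_at, a paralog of Dlg4, by 0.19 ± 0.051 units. Iqsec2 1436622_at, an exchange factor for ARF proteins at excitatory synapses, was lower by -0.23 ± 0.059 units (DBA/2J 7.68 and 7.60, C57BL/6J 7.78 to 7.91). Of the 3 probe sets of each of Homer2, Tanc2, Dlg1 and Iqsec2, 1 was called. The uncalled ones had the same sign for Homer2, Tanc2 and Iqsec2, and were at -0.010 and -0.13 units for Dlg1. Dlg4 gave opposite directions. Its probe sets 1419581_at and 1419580_at were higher in DBA/2J by 1.00 ± 0.30 and 0.95 ± 0.29 units, while 1460261_at was lower, as given above. For 1419581_at the DBA/2J arrays were at 8.91 and 8.18 and the C57BL/6J arrays at 7.68, 7.40 and 7.69. Both of the higher Dlg4 differences lost their call without C57BL/6J replicate 2 or DBA/2J replicate 1, and over single arrays left out they ran from 0.65 to 1.38 and from 0.62 to 1.31 units. The files do not say which transcripts the 3 probe sets read.

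**Figure D4:**
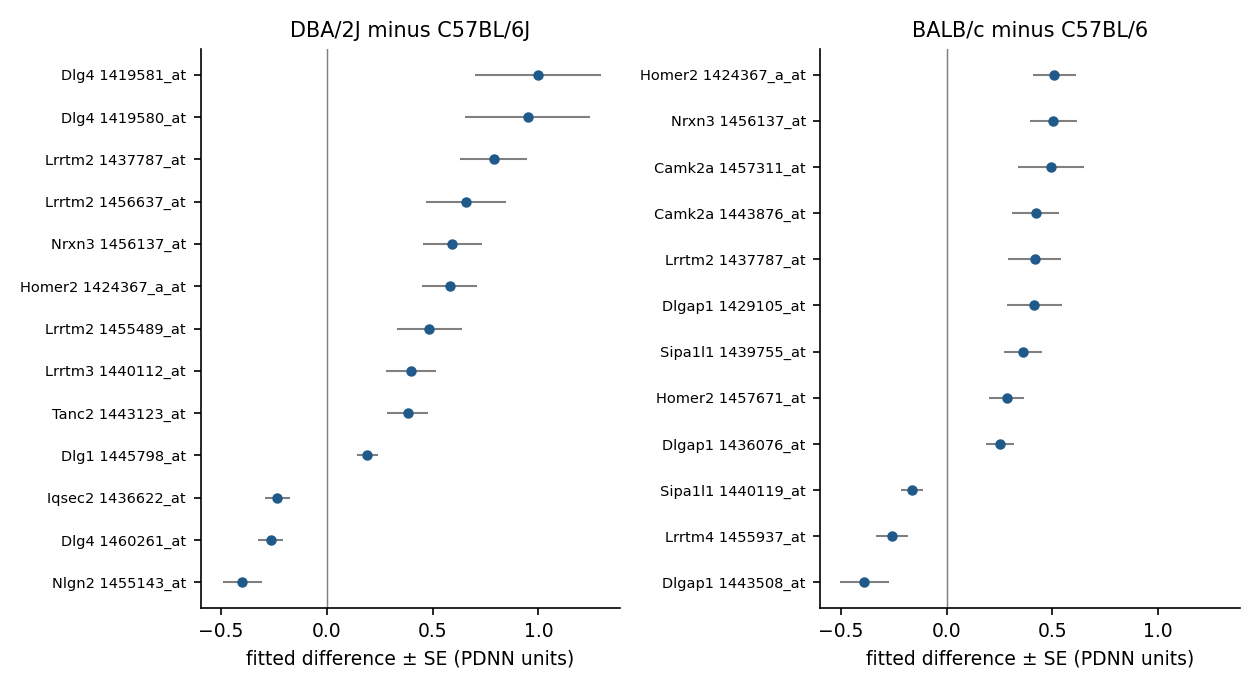
Fitted differences of the called probe sets (points, horizontal axis in PDNN units) with their standard errors (lines), for DBA/2J minus C57BL/6J (left, 13 probe sets) and BALB/c minus C57BL/6 (right, 12 probe sets). Most points lie above 0; Dlg4 has 2 probe sets at the top of the left panel, at 0.95 and 1.00, and 1 near its foot, at -0.26.

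These parental calls rested on few arrays. Without the batch term 3 of the 100 probe sets and 3.29% of all probe sets were called. The count was 6 without C57BL/6J replicate 2 (4.18% of all), 6 without DBA/2J replicate 1 (3.16%) and 7 without DBA/2J replicate 2 (4.74%). Lrrtm2 1437787_at was called under all 9 alternative settings run for it and without each of the 5 arrays, and each of the other 12 lost its call without at least 1 array. Beside them, 16 of 27 oligodendrocyte marker probe sets were lower in DBA/2J and none higher, with a median difference of -0.47 units over the list, and the mean of its 10 genes was 9.24 to 9.39 in DBA/2J and 9.57 to 10.16 in C57BL/6J. The part of this in the differences above was not tested.

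Both F1 hybrids lay between their parents in 11 of the 13 probe sets, and the exceptions were Dlg4 1419580_at and 1419581_at, where B6D2F1 was below C57BL/6J. The 13 were picked because the parents lay far apart, so most strains can fall between them and the count was no test of inheritance. The number of the 68 BXD strains outside the parents ran from 0 for Lrrtm2 1456637_at to 18 for Dlg4 1460261_at. It was 1 for Lrrtm2 1437787_at. Lrrtm2 1437787_at was 9.07 in C57BL/6J, 9.45 in B6D2F1, 9.56 in D2B6F1 and 9.86 in DBA/2J as strain values. Yet in the BXD strains, which segregate the same parental alleles, its ICC was -0.097 and it did not pass the test. Of the 13 parental probe sets, Dlg4 1460261_at and Nlgn2 1455143_at were also called among BXD strains. For Homer2 1424367_a_at the BXD adjusted p was 0.299, and for Tanc2 1443123_at it was 0.506. Whether the parental and the BXD differences differ in size was not tested.

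BALB/cJ and BALB/cByJ together (4 arrays) were compared with C57BL/6J and C57BL/6ByJ (5 arrays). Each side was the mean of its substrain values, not of its arrays. The single BALB/cByJ array therefore carried as much weight as the 3 BALB/cJ arrays together, and fitted differences can depart from differences of array means. Of the 100 probe sets, 12 in 7 genes differed, beside 5.12% of all, with 9 higher in BALB/c, beside 3% of all, and 3 lower, beside 2.12%. This comparison shares the C57BL/6J arrays with the parental one. Homer2 1424367_a_at was higher by 0.51 ± 0.10 units (adjusted p = 0.000303), with BALB/c arrays at 9.51, 9.65, 9.17 and 9.51 and C57BL/6 arrays at 9.38, 8.61, 9.14, 9.19 and 8.99. The groups overlapped, since 1 BALB/cJ array lay below 2 of the C57BL/6 arrays. Nrxn3 1456137_at was higher by 0.50 ± 0.11 units (adjusted p = 0.00097), with BALB/c arrays from 9.64 to 9.95 and C57BL/6 arrays from 8.94 to 9.65. Camk2a, the main CaMKII subunit of excitatory neurons, was higher through 1457311_at by 0.49 ± 0.16 and through 1443876_at by 0.42 ± 0.11 units. For 1443876_at the BALB/c arrays lay between 9.04 and 9.34 and the C57BL/6 arrays between 8.71 and 9.01. These were the 2 of the 12 whose arrays did not overlap. The call of 1457311_at was lost under 5 of 9 alternative settings. The uncalled Camk2a probe sets were at 0.72, -0.17, -0.018 and 0.041 units. Over the 100 probe sets 4 did not overlap, beside 5.08% of all. Of 12 pyramidal marker probe sets 4 were higher in BALB/c and 0 lower. Of 26 dentate granule ones 5 were higher and 2 lower, and of 17 interneuron ones 0 were higher and 3 lower. The part of these in the differences was not tested.

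Lrrtm2 1437787_at was higher by 0.42 ± 0.12 units, with BALB/c arrays from 9.18 to 9.72 and C57BL/6 arrays from 9.01 to 9.62, and Homer2 1457671_at by 0.28 ± 0.084 units. Lrrtm4 1455937_at, an adhesion protein that binds heparan sulphate proteoglycans, was lower by -0.26 ± 0.075 units. Dlgap1 was higher through 1429105_at (0.41 ± 0.13) and 1436076_at (0.25 ± 0.065) and lower through 1443508_at (-0.39 ± 0.12). Sipa1l1, a regulator of spine shape that acts on Rap, was higher through 1439755_at (0.36 ± 0.089) and lower through 1440119_at (-0.16 ± 0.052). Called were 2 of 3 Homer2, 1 of 5 Nrxn3, 2 of 6 Camk2a, 1 of 3 Lrrtm2, 1 of 2 Lrrtm4, 3 of 6 Dlgap1 and 2 of 4 Sipa1l1 probe sets. The negative differences rested on few arrays. That of Dlgap1 1443508_at was -0.10 without BALB/cByJ replicate 1 and -0.31 without C57BL/6ByJ replicate 2, not called in either case, and -0.0020 within the batch that held 2 arrays of each side. That of Sipa1l1 1440119_at was -0.036 without BALB/cByJ replicate 1 and was lost under 6 of 8 alternative settings. Without BALB/cByJ replicate 1, Camk2a 1443876_at (0.25), Nrxn3 1456137_at (0.27), Lrrtm2 1437787_at (0.13), Lrrtm4 1455937_at (-0.089) and Dlgap1 1429105_at (0.17) were not called either. Each of the 12 lost its call without at least 1 array. Of the 12 differences, 9 had the same sign within the batch that held 2 arrays of each side, and Lrrtm2 1437787_at (-0.073 there), Lrrtm4 1455937_at (0.15) and Sipa1l1 1440119_at (0.053) had the opposite one. In all but Dlgap1 1436076_at and Homer2 1457671_at, the largest within-batch difference came from the batch of C57BL/6ByJ replicate 2, such as 0.90 for Homer2 1424367_a_at, against 0.22 and 0.37 in the other 2. Without that array 2 of the 100 probe sets and 2.66% of all were called, and without BALB/cJ replicate 1 there were 6, beside 3.45%. The 3'/5' ratio of Actb, a sign of RNA degradation, was 1.26 to 3.30 in BALB/cJ and 1.13 in BALB/cByJ, against 1.14 to 1.68 in C57BL/6J and 1.23 to 1.75 in C57BL/6ByJ, and its part was not tested.

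Between the substrains C57BL/6J and C57BL/6ByJ, 2 of the 100 probe sets differed, beside 0.0799% of all. Both were higher in C57BL/6J, where 0.0355% of all were higher and 0.0444% lower. Apba1 1455369_at, the neuronal X11 adaptor that joins a presynaptic complex with Cask and Lin7, was higher in C57BL/6J by 0.50 ± 0.11 units (adjusted p = 0.0213), with arrays at 9.13, 9.20 and 9.21 against 8.91 and 8.59. Tanc2 1436513_at was higher by 0.41 ± 0.092 units (adjusted p = 0.0277), with arrays at 9.02, 9.11 and 8.94 against 8.64 and 8.54. Neither overlapped between the substrains, and over the 100 probe sets 20 did not, beside 11.3% of all. BALB/cByJ had 8.56 for Tanc2, near C57BL/6ByJ, and its sister BALB/cJ 9.09, 8.96 and 8.82. Within the shared batch the differences were 0.30 and 0.30 units between single arrays. Leaving out single arrays left between 0 and 1 call, and limma gave 0 calls without C57BL/6J replicate 2 or C57BL/6ByJ replicate 2, where 13 and 15 of the 100 had an unadjusted p under 0.05. The Apba1 difference was 0.30 units without C57BL/6ByJ replicate 2 and 0.72 without replicate 1.

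Between the 4 wild-derived and 13 classical strains, with strains as the replicates, 1 of the 100 probe sets differed, beside 3.9% of all. It was lower in the wild-derived strains, where 1.99% of all were lower and 1.92% higher. Homer2 1424367_a_at was 8.86 ± 0.40 (SD, n = 4 strains) in the wild-derived and 9.43 ± 0.23 (SD, n = 13) in the classical strains, a difference of -0.57 ± 0.14 units (SE, adjusted p = 0.0388, limma). PWD/PhJ at 8.37 and PWK/PhJ at 8.72 lay below every classical strain, whereas CAST/EiJ at 9.07 and WSB/EiJ at 9.28 lay within the classical range of 9.07 in AKR/J to 9.77 in BALB/cByJ. The call was lost without any of 9 of the 17 strains, PWD/PhJ, PWK/PhJ and CAST/EiJ among them. It was also lost under 3 of 10 alternative settings, namely MAS5 values, RMA values and quantile normalization. One of the PWD/PhJ arrays, at 8.06, carried a header naming PWK/PhJ, and the other was at 8.43. The 3'/5' ratio of Actb was 1.89 to 2.80 in PWD/PhJ, 2.32 to 4.65 in PWK/PhJ, 2.74 in CAST/EiJ and 1.32 to 1.44 in WSB/EiJ, and its part was not tested.

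**Figure D5:**
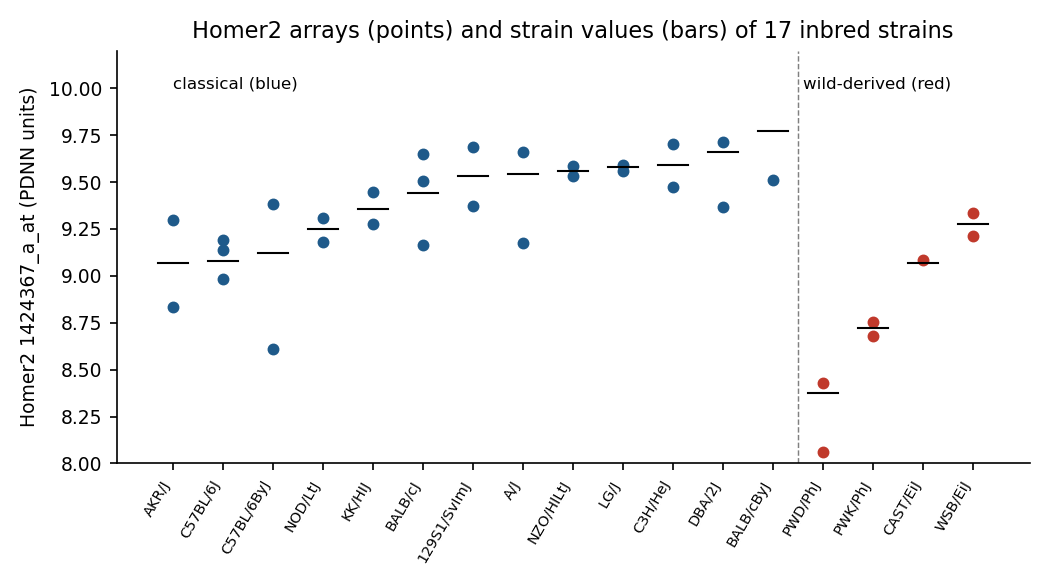
Homer2 1424367_a_at in 13 classical (blue) and 4 wild-derived strains (red), with arrays as points and strain values, adjusted for sex and batch, as bars (vertical axis, PDNN units). PWD/PhJ and PWK/PhJ lie lowest, with strain values of 8.37 and 8.72, and BALB/cByJ highest at 9.77 from a single array at 9.51.

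The next largest wild-derived differences did not pass the test. They were Homer1 1436387_at (0.35 ± 0.23 units, adjusted p = 0.335), Camk2a 1437125_at (-0.28 ± 0.22, adjusted p = 0.432), Sipa1l1 1439755_at (-0.27 ± 0.10, adjusted p = 0.113) and Tanc2 1436513_at (0.27 ± 0.075, adjusted p = 0.0529). Homer1 spread over the 4 strains from 8.52 in WSB/EiJ to 10.34 in CAST/EiJ.

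Neither sex nor age gave a call in the 100 probe sets, beside 0.118% (0.0444% higher and 0.0733% lower in males) and 0.00222% of all probe sets (limma). At an unadjusted p under 0.05, 9 of the 100 passed for sex and 3 for age, and 1871 and 1148 of all probe sets did so. For sex, the 5 largest male minus female differences were in Camk2a 1437125_at (-0.085 ± 0.062 units), Baiap2 1425656_a_at (-0.073 ± 0.028), Nrxn2 1455499_at (-0.065 ± 0.036), Camk2a 1452453_a_at (-0.061 ± 0.043) and Dlgap4 1455548_at (-0.056 ± 0.030). For age, the largest slope per 10 days was 0.025 ± 0.011 units in Camk2d 1422659_at. It was followed by 0.019 ± 0.0089 in Camk2g 1423942_a_at, -0.018 ± 0.012 and -0.017 ± 0.010 in Lrrtm2 1456637_at and 1437787_at, and -0.015 ± 0.0077 in Lrrtm4 1437214_at. The smallest adjusted p among the 100 was 0.993 for sex and 1.00 for age.

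Other genes of the postsynaptic density and of synaptic adhesion, 62 measured of a list of 68 and with 152 probe sets, are given beside the same backgrounds; this list too was drawn up with earlier results of these data known. Over all strains 56 were called (36.8%), over BXD strains 14 (9.21%) and over CXB strains 3 (1.97%). Between DBA/2J and C57BL/6J 10 were higher and 2 lower (7.89%), and between BALB/c and C57BL/6 13 were higher and 3 lower (10.5%). Between the C57BL/6 substrains, for sex and for age there was none, and between wild-derived and classical strains 5 were higher and 3 lower (5.26%). Cript, which binds the PDZ domains of Dlg4, had the largest ICC of the list in the BXD panel through 1423487_at (0.89, adjusted p = 2.04e-21) and was lower in DBA/2J by -0.45 ± 0.077 and in BALB/c by -0.46 ± 0.061 units. Lrrc4c 1456759_at, a postsynaptic adhesion protein that binds netrin G1, was higher in DBA/2J by 0.91 ± 0.15 units and had an ICC of 0.34 in the BXD panel. Baiap2l1 1424951_at, a paralog of Baiap2, was higher in BALB/c by 1.38 ± 0.067 units and had an ICC of 0.95 in the CXB panel. Nos1 1438483_at, the neuronal nitric oxide synthase that binds Dlg4, was higher in DBA/2J by 0.61 ± 0.17 and in BALB/c by 0.52 ± 0.13 units and lower in wild-derived strains by -0.67 ± 0.16 units.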

How the data were processed

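Hippocampal RNA was read on Affymetrix M430 2.0 arrays, and the authors deposited PDNN, MAS5 and RMA scores per probe set; per the labels, each array was brought to mean 8 with SD 2. In the deposited PDNN scores the array means were 8.06 to 8.10 and the SDs 0.630 to 0.799. The log base was not given in the sources used here, and the log-like scale limits differences to PDNN units. The 64 control probe sets were left out and 45037 tested.

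Strain, sex and batch were fitted with limma 3.58.1 in R 4.3.3 to 199 columns with 92 residual degrees of freedom, and the BXD (133 arrays) and CXB (27 arrays) panels were also fitted alone. Moderated F-tests or moderated contrasts were adjusted by Benjamini-Hochberg over all tested probe sets at 0.05. Wild-derived and classical strains were compared over strain values. A technical duplicate of B6D2F1 was averaged with its original, and the mixed-sex BXD9 array was left out. Correlations over strains used 100000 permutations, or all orders under 10 strains, and were two-sided. On simulated data with 200 changed probe sets of 45037, the BXD test recovered 199 and the CXB test 143 strain effects with an SD of 0.2 units. The DBA/2J against C57BL/6J test recovered 169 differences of 0.5 units. Over the 100 probe sets the median SD of BXD strain values was 0.0834 units, and recovery at that size was not simulated.

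Every gene was followed through probe sets annotated with that symbol alone. In each comparison every called gene is named, with values for the 10 genes with the largest BXD ICC and the 5 largest differences elsewhere. Members and lists were chosen with earlier results of these data known. Alternatives were MAS5 and RMA values, quantile normalization, a mean filter, no batch term, age, and leaving out arrays. Of 197 RMA columns, 4 matched another strain better than their own label and were left out. Of the 4, 3 carried the label C57BL/6J, a strain with 3 arrays, and 3 matched BALB/cJ. RMA values were not run for the parental, BALB/c and substrain comparisons, which all use C57BL/6J arrays. Promoter windows come from RefSeq. Protein sequences and genome sequence were not used here.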

Additional observations from a re-analysis of the deposited data

Results flagged for a closer look

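In 25 groups of 4 or 5 compared arrays or strains, 4 held a value far from the rest, measured as the gap to the nearest other value over the group's whole range. Chance gives about 1 in 20 groups such a value. All 4 concern the BALB/c and C57BL/6 arrays. For Lrrtm2 1437787_at, C57BL/6ByJ replicate 1 was at 9.62 and the nearest C57BL/6 array at 9.10, a share of 0.855. For Dlgap1 1443508_at, C57BL/6ByJ replicate 2 was at 8.17 and the nearest at 7.52, a share of 0.903. For Sipa1l1 1440119_at, C57BL/6ByJ replicate 1 was at 7.57 and the nearest at 7.74, a share of 0.725. For Sipa1l1 1439755_at, BALB/cJ replicate 1 was at 10.34 and the nearest BALB/c array at 10.11, a share of 0.844.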

How the results depend on the processing

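No called difference between groups changed sign under any alternative run. Strain effects are given as SDs, which have no sign to change. Counts of called probe sets among the 100 stayed within 1.5 times the reported count except as follows, with the share of all probe sets called in parentheses. With MAS5 values they were 3 for BXD (5.46%), 0 for CXB (0.471%, with limma, and 3 at an unadjusted p under 0.05), 6 for DBA/2J against C57BL/6J (5.41%), 2 for BALB/c against C57BL/6 (2.74%), 1 for the C57BL/6 substrains (0.149%) and 2 for wild-derived strains (1.69%). Without the batch term they were 3 for DBA/2J (3.29%), 3 for BALB/c (3.03%), 1 for the substrains (0.0577%) and 2 for wild-derived strains (4.05%). Quantile normalization gave 7 for BALB/c (5.12%) and 2 for wild-derived strains (3.74%). A mean of 8 or more left 72 of the 100 probe sets, of which 8 were called for DBA/2J (11.3% of all those left). A spread shared over all strains gave 4 for BXD (6.95%) and 3 for CXB (4.2%), and age as a covariate gave 2 for CXB (1.19%). Among alternatives chosen after seeing the data, rescaling to an SD of 2 gave 5 for BALB/c (5.02%) and 2 for wild-derived strains (3.49%), and leaving out arrays with disagreeing headers gave 2 for wild-derived strains (4.6%). The cause was not tested. Leaving out 1 array or strain gave 7 to 9 calls for BXD, 1 to 2 for CXB, 6 to 14 for DBA/2J, 2 to 17 for BALB/c, 0 to 1 for the substrains, 23 to 26 over all strains and 0 to 6 for wild-derived strains. The 6 came without WSB/EiJ. Dlg4 1460261_at stayed called among BXD strains under the 10 alternatives that kept it and without each of 20 randomly drawn arrays; the mean filter left it out. Nlgn2 1455143_at was lost among them with MAS5 and RMA values, and Homer1 1436387_at was lost in the CXB panel with MAS5 values. For wild-derived strains Homer2 1424367_a_at was lost with MAS5 values, RMA values and quantile normalization, so the counts there came from other probe sets. One further alternative, the leading components of the residuals as covariates, was also run after seeing the data; it raised the counts and was set aside, because such components cannot alter the strain estimates and only shrink the error. No paired analysis was possible because the replicate numbers were given in accession order and pair no arrays. With 1 to 3 arrays per strain, the number of arrays limits precision.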
